A study of Rattus norvegicus with 28 samples.

Results

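Transcripts that handle bile acids were followed in the terminal ileum of newborn rats. The set comprised 8 genes chosen by name, namely Cyp27a1, Abcc2, Abcc3, Abcb4, Slc10a2, Fabp6, Nr1h4 and Nr0b2. Every probe set whose single platform symbol was one of these names was taken, which gave 13 of the 8740 probe sets left after control probe sets were removed. Each probe set was kept apart because those of Fabp6 disagreed. Of the 13 probe sets, 11 passed the filter on low signals and were tested. Slc10a2 U07183_at and Nr0b2 D86745exon_s_at did not pass, and their estimates come from a fit without the filter.

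The study addressed necrotizing enterocolitis, in which the bowel of the newborn becomes inflamed and necrotic, with 1 Affymetrix array per pup and 28 pups in all. There were 12 breast-fed pups, sampled at 1, 2, 3 and 4 days of life (3 at each age). Another 12 pups, sampled at the same ages, were fed formula and exposed to hypoxic stress 3 times a day. A further 4 newborns had not been fed and are shown as day 0. Strain, sex and litter are not given in the labels. Formula and hypoxia were always combined, so the effects of either cannot be told apart. The labels describe separate pups, and p-values measure the spread between these pups only. The arrays differed in how many abundant probe sets (median signal over 500 on the others) read more than 16-fold low. It was 69 of 754 on the array of breast-fed day 3 replicate 3, 48 of 757 on that of breast-fed day 4 replicate 2 and 0 to 2 elsewhere. The samples carry accession numbers in 2 separate runs, of 19 and 9 arrays, and the second run holds all 3 breast-fed pups of day 4 but 1 pup given formula and hypoxia.

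Bile acids are made from cholesterol in the liver, reach the gut lumen with bile and are reclaimed in the terminal ileum. Slc10a2 carries them into the enterocyte from the lumen, and Fabp6 binds them in the cytosol. Nr1h4 (the farnesoid X receptor, FXR) is the nuclear receptor that bile acids activate. It induces Fabp6 and Nr0b2, a repressor that damps bile acid synthesis. In rats, active ileal uptake is low after birth and develops towards weaning.

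The regulatory sequence just upstream of the genes that passed the test is shown, because FXR and related receptors act on such sequence. RefSeq promoters on the GRCr8 build were found for 6 of the 8 genes, and the 250 bases before the start site are printed for 3 of them, 5′ to 3′ on the coding strand. The windows are chr10:28569728-28569977 on the minus strand for Fabp6, chr9:83713282-83713531 on the plus strand for Cyp27a1 and chr1:252613625-252613874 on the plus strand for Abcc2. Capitals mark the motif matches named after the sequences.
Fabp6: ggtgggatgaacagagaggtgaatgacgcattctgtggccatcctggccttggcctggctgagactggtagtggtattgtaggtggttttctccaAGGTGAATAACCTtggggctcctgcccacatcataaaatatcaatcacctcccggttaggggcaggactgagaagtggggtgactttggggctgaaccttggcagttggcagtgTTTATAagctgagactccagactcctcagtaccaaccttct
Cyp27a1: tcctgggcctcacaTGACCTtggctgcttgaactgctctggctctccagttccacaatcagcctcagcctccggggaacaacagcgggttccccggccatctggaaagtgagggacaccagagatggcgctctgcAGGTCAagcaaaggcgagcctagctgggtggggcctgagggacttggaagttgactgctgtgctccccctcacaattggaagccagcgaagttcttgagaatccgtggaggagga
Abcc2: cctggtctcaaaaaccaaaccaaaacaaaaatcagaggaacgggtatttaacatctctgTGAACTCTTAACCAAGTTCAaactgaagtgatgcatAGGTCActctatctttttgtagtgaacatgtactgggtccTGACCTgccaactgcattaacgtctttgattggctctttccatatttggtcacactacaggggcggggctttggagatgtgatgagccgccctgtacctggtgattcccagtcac

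An inverted repeat of the half-site AGGTCA with a single base between the copies is the best known FXR element. The Fabp6 window held AGGTGAATAACCT from position -155 to -143, counted from the start site. It matches the relaxed pattern AGGTNANTNACCT, which occurred in 15 of 33469 RefSeq promoter windows (0.0448%). The strict pattern AGGTCANTGACCT occurred in 9 windows (0.0269%), and that of Fabp6 was not among them. Abcc2 held an everted repeat with 8 bases between the copies, TGAACTCTTAACCAAGTTCA from -191 to -172, a motif known as a site for FXR and the xenobiotic receptors on this gene. The pattern TGAACTNNNNNNNNAGTTCA occurred in 1 of the 33469 windows (0.00299%). Cyp27a1 and Abcc2 each held 2 single AGGTCA half-sites, which 14.1% of windows carry at least once. Fabp6 also held TATAAA on the opposite strand, a motif in 12.9% of windows. Both strands were searched, the patterns were chosen with these sequences in view, and a match is a description of letters only.

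Across the 4 days, the bile acid genes did not move as 1 block. Both Cyp27a1 probe sets and Abcc2 rose under formula and hypoxia relative to breast feeding, and 1 of the 2 Fabp6 probe sets fell. Thus 4 of 11 probe sets tested, from 3 genes, passed limma's test at an adjusted p under 0.05 (3 higher, 1 lower), where 10.5% of all 5244 probe sets passed (3.91% higher and 6.58% lower). The genes were chosen with earlier results of these data known, so this count is a description. The lower 1, Fabp6 S52878_s_at, passed the filter on low signals only through breast-fed days 3 and 4, where it was high. Scaling to a common median instead gave 2.46% higher and 7.42% lower over all probe sets, and 3 of the 11 passed, without Abcc2. The median difference of the 11 was 0.40 on the log2 scale, against 0.02 over all probe sets tested. The other 7 probe sets tested, of Abcc3, Abcb4, Slc10a2, Nr1h4 and Nr0b2 and the second of Fabp6, did not pass. Log2 differences here and below are on a scale with 8 signal units added to every value, which compresses changes of dim probe sets.

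**Figure D1:**
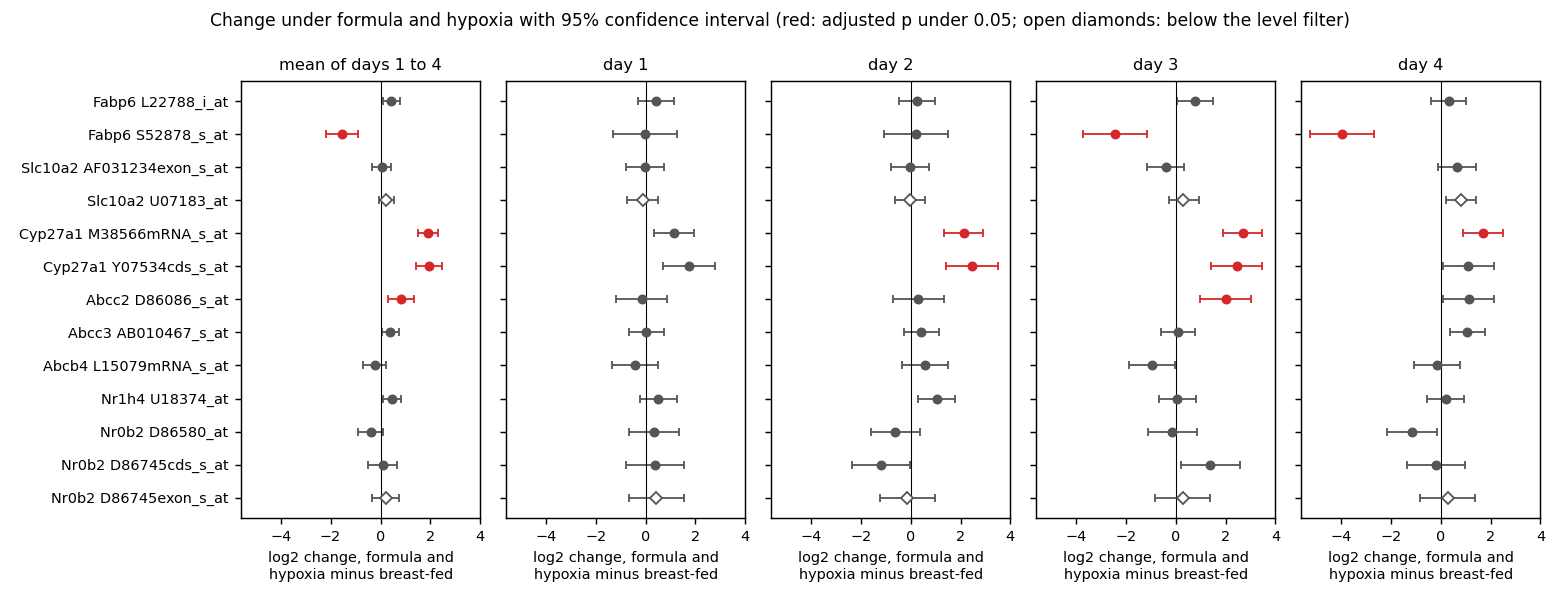
Log2 difference between pups given formula and hypoxia and breast-fed pups for the 13 probe sets, as the mean of days 1 to 4 and on each day (x axis, log2; positive values are higher under formula and hypoxia). Points are limma estimates, bars their 95% confidence intervals, red an adjusted p under 0.05, and open diamonds probe sets below the filter. Cyp27a1 lies at 1.91 and 1.93 over the 4 days, and Fabp6 S52878_s_at moves from -0.02 on day 1 to -3.96 on day 4.

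Cyp27a1 encodes the sterol 27-hydroxylase of mitochondria, which starts the alternative route of bile acid synthesis and removes cholesterol from many cells outside the liver. With M38566mRNA_s_at, breast-fed signals (quantile-normalised intensity) were 138, 222 and 163 (day 1), 74.4, 76.8 and 101 (day 2), 160, 125 and 41.9 (day 3), and 87.6, 190.1 and 123 (day 4). In the pups given formula and hypoxia this signal was 282, 362 and 559 (day 1), 575, 382 and 269 (day 2), 502, 642 and 875 (day 3), and 354, 519 and 439.5 (day 4). The lowest of the 12 pups given formula and hypoxia, at 269, lay above the highest of the 12 breast-fed pups, at 222. Of all probe sets tested, 0.248% separated the 2 regimens in this way. Unfed newborns had 254, 152, 146 and 174, within the breast-fed range but for the highest of them.

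Averaged over the days, Cyp27a1 M38566mRNA_s_at was 3.76-fold higher under formula and hypoxia (log2 1.91, 95% confidence interval 1.51 to 2.31, limma adjusted p = 3.91e-07). The second probe set, Y07534cds_s_at, gave 3.81-fold (log2 1.93, 1.41 to 2.45, adjusted p = 1.35e-05), with 11 of 12 pups higher than the mean of breast-fed pups of their age. The effects of the 2 probe sets differed by -0.02 on the log2 scale (exact permutation of regimens within days, 160000 arrangements, two-sided p = 0.956, also after adjustment over 6 pairs of probe sets). Over the 28 pups their log2 values had a Pearson r of 0.76. It was 0.66 within formula and hypoxia but -0.06 within breast-fed pups. In whole tissue, more cells of a type and more RNA per cell cannot be told apart.

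With Y07534cds_s_at, breast-fed pups gave 88.7, 52.1 and 45.3 (day 1), 36.3, 29.0 and 38.0 (day 2), 44.0, 37.1 and 161 (day 3), and 40.3, 143 and 34.7 (day 4). Pups on formula and hypoxia gave 191, 160.2 and 334 (day 1), 341, 171 and 187 (day 2), 425, 368 and 379 (day 3), and 52.5, 222 and 215 (day 4). The highest breast-fed values, 161 and 143, came from day 3 replicate 3 and day 4 replicate 2, the arrays that had lost many abundant probe sets. Without both arrays the log2 difference was 2.23 (adjusted p = 9.83e-08), and that of M38566mRNA_s_at was 1.85 (8.79e-08). Within the 19 arrays of the first accession run, which hold days 1 to 3 of both regimens, the differences were 1.86 for M38566mRNA_s_at and 2.38 for Y07534cds_s_at (both adjusted p = 1.87e-05).

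By day, no probe set of the 11 passed on day 1 (0.0191% of all did), although 2 had an unadjusted p under 0.05, both of Cyp27a1. On that day the log2 difference was 1.13 for M38566mRNA_s_at (limma adjusted p = 0.36) and 1.74 for Y07534cds_s_at (0.226), and the regimens did not overlap with either, as for 13.3% of all probe sets. Y07534cds_s_at passed on day 1 with array weights (1.88, adjusted p = 0.00825) and when the 2 arrays low in abundant probe sets were left out (1.74, 0.0497). On day 2 only the 2 Cyp27a1 probe sets passed (2 of 11, against 1.13% of all), at 4.36-fold (adjusted p = 0.00509) and 5.45-fold (0.0126). On day 3 they were 6.41-fold (adjusted p = 0.000507) and 5.41-fold (0.0112) higher, when 4 of 11 passed against 1.85% of all. The calls of Y07534cds_s_at were lost on day 2 without breast-fed replicate 2 (adjusted p = 0.0682) or replicate 1 of formula and hypoxia (0.0809), and on day 3 without the same 2 numbers (0.0589 and 0.0594). On day 4 M38566mRNA_s_at was 3.25-fold higher (adjusted p = 0.0247), while Y07534cds_s_at, at 2.15-fold (log2 1.11), did not pass (0.296) but did with array weights (1.79, 0.0108). Neither probe set passed on day 3 with only the arrays of that day fitted (adjusted p = 0.157 and 0.21). The day 4 call of M38566mRNA_s_at did not hold with accession run as a term (log2 1.42, adjusted p = 0.15), a common median (1.53, 0.0565) or only the arrays of that day (1.70, 0.0912), and it was lost without any day 4 array but breast-fed replicate 2 (adjusted p up to 0.0877). The 4 daily effects of M38566mRNA_s_at did not differ from each other past the threshold in limma's F test (adjusted p = 0.741).

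**Figure D2:**
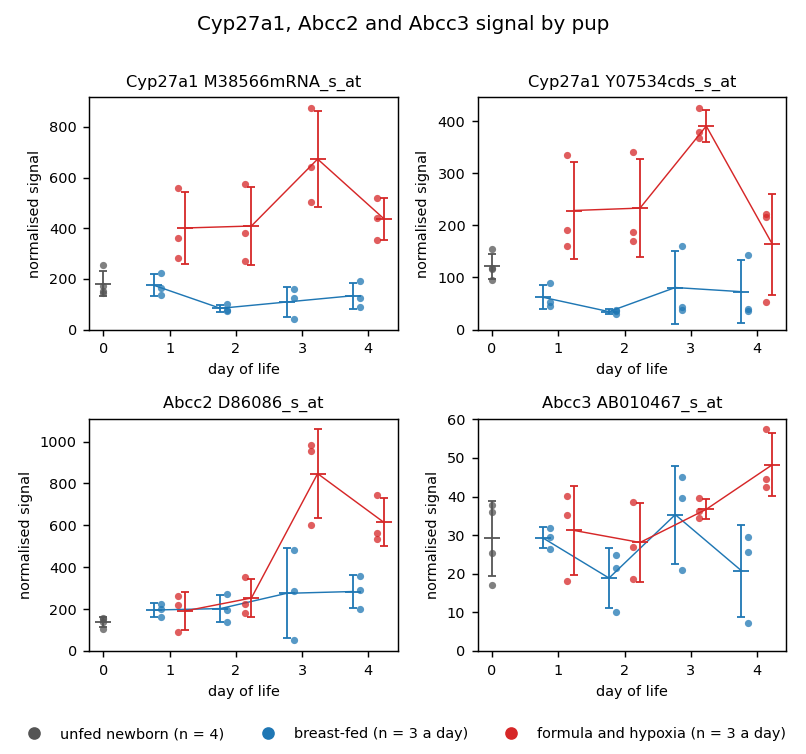
Signal of Cyp27a1, Abcc2 and Abcc3 (y axes, quantile-normalised intensity) by day of life (x axis, days), with points for single pups, horizontal ticks for group means, vertical bars for the SD and lines joining the means of a regimen (n = 3 a day, 4 unfed). All 12 pups given formula and hypoxia lie above all 12 breast-fed pups for Cyp27a1 M38566mRNA_s_at, and Abcc2 reaches means of 847 and 614 on days 3 and 4.

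Abcc2, Abcc3 and Abcb4 are pumps of the ABC family. Abcc2 (multidrug resistance-associated protein Mrp2) exports glucuronide, glutathione and sulphated bile acid conjugates across the apical membrane. With D86086_s_at, unfed newborns gave 106, 151, 136 and 159. Breast-fed pups gave 199, 225 and 162 (day 1), 269.7, 140.2 and 197 (day 2), 483, 288 and 54.4 (day 3), and 199, 359.7 and 293 (day 4). Under formula and hypoxia the signals were 89.6, 220.2 and 263 (day 1), 353, 225 and 181 (day 2), 953, 985 and 603 (day 3), and 563, 746 and 533 (day 4). The regimens overlapped on days 1 and 2 and were separate on days 3 and 4, when 18% and 20.7% of all probe sets were separate.

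On day 3 Abcc2 was 4.01-fold higher under formula and hypoxia (95% interval 1.97 to 8.14, limma adjusted p = 0.0366). That call rested on breast-fed day 3 replicate 3, the array at 54.4: without it the difference was 1.13 (adjusted p = 0.249). It was also lost without replicate 1 (adjusted p = 0.144) or replicate 2 (0.0897) of formula and hypoxia on that day. Other settings that ended it were a common median (1.75, 0.0636), no filter (adjusted p = 0.0525), array weights (1.18, 0.159), accession run as a term (1.83, 0.0746) and only the arrays of that day (adjusted p = 0.439). On day 4 the difference of 1.12 did not pass (adjusted p = 0.279). Over the 4 days Abcc2 was 1.76-fold higher (log2 0.82, 0.31 to 1.33, adjusted p = 0.0356), with 10 of 12 pups higher than the breast-fed mean of that day. That value stood at 0.65 with accession run as a term (adjusted p = 0.174) and at 0.46 within the first run (0.276). With the deposited scaling it was 0.78 (0.0586), with a common median 0.68 (0.0853) and with array weights 0.55 (0.0526). The call was also lost without any of 12 single arrays (adjusted p up to 0.0685). These were breast-fed day 1 replicates 1 and 3, day 2 replicates 2 and 3 and day 4 replicate 1. On formula and hypoxia they were day 1 replicates 2 and 3, day 2 replicate 1, and replicates 1 and 2 of days 3 and 4.

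Between day 1 and day 4 of formula and hypoxia, 1 of the 11 probe sets passed, that of Abcc2, where 10.6% of all probe sets did, so the count is near the background. Abcc2 rose 3.38-fold (log2 1.76, limma adjusted p = 0.0254). Cell type markers moved in this contrast too: 6 of 16 enterocyte markers rose and 0 fell (median 0.93), as did 4 of 9 smooth muscle markers (median 0.79), against a median of -0.01 over all probe sets. Those that fell were 2 of 4 red cell markers (median -0.79), 1 of 10 liver markers (-0.58) and 1 of 6 pancreas markers (-0.14). The summed enterocyte signal was 18603 to 26625 on day 1 and 36287 to 40541 on day 4, and its part in the rise of Abcc2 was not tested. The Abcc2 call was lost without day 1 replicate 1, the pup at 89.6 (1.31, adjusted p = 0.141), or day 4 replicate 1 (0.0811) or 2 (0.0848). In breast-fed pups the same contrast for Abcc2 was 0.49 (adjusted p = 0.671). On day 1 neither regimen passed against unfed newborns, with 0.48 for breast-fed pups (adjusted p = 0.977) and 0.33 for formula and hypoxia (0.903).

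Abcc3 (Mrp3) exports conjugates and bile acids across the basolateral membrane. Its probe set AB010467_s_at was dim, at 7.18 to 45.2 in breast-fed pups, 18.2 to 57.6 under formula and hypoxia and 17.1 to 37.9 in unfed newborns. On day 4 the 3 pups given formula and hypoxia had 44.6, 42.6 and 57.6, above the breast-fed 29.6, 7.18 and 25.6. On that day 20.7% of all probe sets were separate. The day 4 difference was 2.09-fold (log2 1.06, 95% interval 0.36 to 1.77) and did not pass (limma adjusted p = 0.118). The mean over the days was 0.40 (adjusted p = 0.131), with 11 of 12 pups above the breast-fed mean of their day. The breast-fed 7.18 came from day 4 replicate 2, on 1 of the 2 arrays that had lost many abundant probe sets. Without both arrays the mean over the days was 0.23 (limma adjusted p = 0.382). Within the first accession run the mean over days 1 to 3 was 0.10 (limma adjusted p = 0.837).

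Abcb4 moves phosphatidylcholine into bile across the canalicular membrane of hepatocytes. With L15079mRNA_s_at, breast-fed pups gave 23.5, 64.0 and 12.3 (day 1), 106, 29.9 and 43.1 (day 2), 76.8, 55.0 and 63.1 (day 3), and 8.06, 35.9 and 17.4 (day 4). Under formula and hypoxia the lowest and highest signals were 12.97 and 30.6 (day 1), 74.5 and 89.0 (day 2), 19.7 and 52.8 (day 3), and 8.90 and 21.0 (day 4). The 3 pups of day 2 thus lay above the other 9 of that regimen, an observation made after the values were seen and not tested. The regimens differed by -0.24 over the days (limma adjusted p = 0.544). On day 3 they did not overlap, as for 18% of all probe sets, and the difference of -0.94 did not pass (adjusted p = 0.307).

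Slc10a2, the apical sodium-dependent bile acid transporter of ileal enterocytes, was dim with both of its probe sets. AF031234exon_s_at gave 33.9 to 41.3 in unfed newborns, 27.5 to 45.4 in breast-fed pups (median 32.2) and 12.3 to 78.8 under formula and hypoxia (median 41.6). The 12 breast-fed pups varied little, whereas those on formula and hypoxia spread on both sides of them, with 6 above and 6 below the breast-fed mean of their day. The difference over the days was 0.05 (95% interval -0.33 to 0.43, limma adjusted p = 0.903).

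On day 4 formula and hypoxia gave a mean of 61.6 ± 15.2 (SD, n = 3) against 35.4 ± 2.44 in breast-fed pups with this probe set. The regimens did not overlap, as for 20.7% of all probe sets tested on that day. The log2 difference of 0.66 (95% interval -0.10 to 1.42) did not pass (limma adjusted p = 0.431). The second probe set, U07183_at, lay below the filter, with 18 of 28 arrays under a signal of 8. On day 4 it too was separate, with 9.43, 13.2 and 9.72 against 2.94, 2.86 and 2.25 (log2 0.81, adjusted p = 0.248 in the unfiltered limma fit). The effects of these probe sets over the days differed by -0.20 (exact permutation p = 0.378, adjusted p = 0.567).

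Fabp6 encodes the ileal bile acid binding protein, the main cytosolic carrier of bile acids in the ileum and a classic FXR target. Its 2 probe sets gave opposite signs. L22788_i_at gave 417 or more in every pup. It stood at 863, 536, 732 and 813 in unfed newborns. Breast-fed signals were 599.6, 899.6 and 603 (day 1), 1346, 889 and 527 (day 2), 1005, 1044 and 417 (day 3), and 1327, 709 and 1110.5 (day 4). Formula and hypoxia gave 943, 1081 and 744 (day 1), 941, 1029 and 1147 (day 2), 1565, 1187 and 1210.2 (day 3), and 1745.5, 1017 and 1141.5 (day 4). All 12 pups on formula and hypoxia were above the breast-fed mean of their day. The regimens overlapped on every day except day 3, when 18% of all probe sets were separate. The difference of 0.44 (1.36-fold, 95% interval 1.06 to 1.74) did not pass over the days (limma adjusted p = 0.106), nor did the 0.78 of day 3 (0.274). The breast-fed signals of 417 and 709 came from the 2 arrays that had lost many abundant probe sets. Without both arrays the difference over the days was 0.27 (limma adjusted p = 0.289).

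S52878_s_at had another course. Unfed newborns gave 30.8, 8.71, 46.3 and 20.6. Breast-fed signals were 48.5, 10.3 and 19.4 (day 1), 10.2, 13.3 and 9.32 (day 2), 385, 131 and 22.7 (day 3), and 217, 183 and 164 (day 4). Formula and hypoxia gave 43.1, 27.4 and 7.13 (day 1), 8.23, 9.55 and 28.2 (day 2), 6.37, 15.3 and 22.6 (day 3), and 2.72, 5.47 and 5.81 (day 4). The 5 highest signals, from 131 to 385, thus belonged to breast-fed pups, 2 on day 3 and all 3 on day 4, and the remaining 23 of the 28 pups gave 48.5 or less. The third breast-fed pup of day 3, at 22.7, was on 1 of the 2 arrays with lost probe sets.

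Over the days S52878_s_at was 2.94-fold lower under formula and hypoxia (log2 -1.55, 95% interval -2.20 to -0.91, limma adjusted p = 0.00194), with 9 of 12 pups below the breast-fed mean of their day. Its mean log2 value over all arrays, a signal of 26.7, lay just above the filter at 24.0. Of the group means of the log2 values, only those of breast-fed days 3 and 4 lay above the filter. The probe set thus entered the test through groups in which it was high, and its p-values carry that selection. In the unfiltered limma fit the adjusted p over the days was 0.00307. On days 1 and 2 the differences were -0.02 (adjusted p = 0.996) and 0.21 (0.986). On day 3 it was 5.48-fold lower (log2 -2.45, -3.74 to -1.17, adjusted p = 0.0375). Without the array with lost probe sets that became -3.43 (adjusted p = 0.00227), whereas it was -1.59 (0.157) without breast-fed replicate 1, the pup at 385. The day 3 call was also lost without breast-fed replicate 2 (-2.34, 0.0972) or formula and hypoxia replicate 1 (-2.15, 0.184) or 2 (-2.50, 0.072). It did not hold with the deposited scaling (-2.24, 0.0819), with 2 units added (-2.83, 0.0539), with no filter (-2.45, 0.0606), with the replicate number as a block (-2.45, 0.0564) or with only the arrays of that day (-2.45, 0.416).

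On day 4 the mean S52878_s_at signal was 4.66 ± 1.69 (SD, n = 3) under formula and hypoxia against 188 ± 26.9 in breast-fed pups, a log2 difference of -3.96 (95% interval -5.24 to -2.67, limma adjusted p = 0.000787). The 2 probe sets that passed on day 4 compare with 1.64% of all. All 3 signals under formula and hypoxia were below the 8 units added, so the fold is set by that choice, and the difference ran from -4.86 to -2.58 with 2 or 32 units added. When the 4 daily effects were compared with limma's F test, 0 of 11 passed, against 0.0191% of all, and 3 had an unadjusted p under 0.05. S52878_s_at came closest (adjusted p = 0.107) and passed without breast-fed day 3 replicate 3 (adjusted p = 0.00321), with array weights (0.00488) and with accession run as a term (0.0394).

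All 3 breast-fed arrays of day 4 belong to the second accession run, and the pups at 385 and 131 on day 3 belong to the first. With accession run as a term the day 4 difference of S52878_s_at was -4.65 (limma adjusted p = 0.00079) and that of day 3 was -2.80 (0.0138). Within the second run, where 1 pup on formula and hypoxia stands against the 3 breast-fed pups of day 4, it was -3.82 (adjusted p = 0.363). Within the first run the mean over days 1 to 3 was -1.20 (adjusted p = 0.0297). Between day 1 and day 4 of breast feeding the log2 difference of S52878_s_at was 2.68 (adjusted p = 0.0585), and 0 of 11 passed this contrast, against 0.362% of all; 1 of 11 had an unadjusted p under 0.05. It passed when replicate 3 (adjusted p = 0.0153) or replicate 1 (0.031) of breast-fed day 3 was left out, or replicate 3 of day 1 under formula and hypoxia (0.0448). It also passed with accession run as a term (3.37, adjusted p = 0.0321), array weights (2.76, 0.00749), the deposited scaling (2.98, 0.0226) or 32 units added (1.97, 0.0251). Beside it, 1 of 16 enterocyte markers rose between these days, and their summed signal went from 20900 to 25902 on day 1 to 29202 to 36858 on day 4; its part in the Fabp6 signal was not tested.

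The effect of formula and hypoxia was 2.0 higher on the log2 scale with L22788_i_at than with S52878_s_at. This disagreement was known when the probe sets were kept apart, so it is a description with no test. Over the 28 pups their log2 values had a Pearson r of -0.02 and a Spearman rho of -0.13. Without the 2 pups farthest from the median of L22788_i_at, r was -0.09, and pups extreme with S52878_s_at were not left out for that. Within breast-fed pups r was 0.38, and within formula and hypoxia -0.26. A probe set with the suffix _s_at can match more than 1 transcript, and which transcript S52878_s_at reads cannot be checked here. The same limit holds for both Cyp27a1 probe sets and those of Abcc2, Abcc3 and Abcb4, which share the suffix. It also holds for Slc10a2 AF031234exon_s_at and for Nr0b2 D86745cds_s_at and D86745exon_s_at. What L22788_i_at reads was not checked either.

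**Figure D3:**
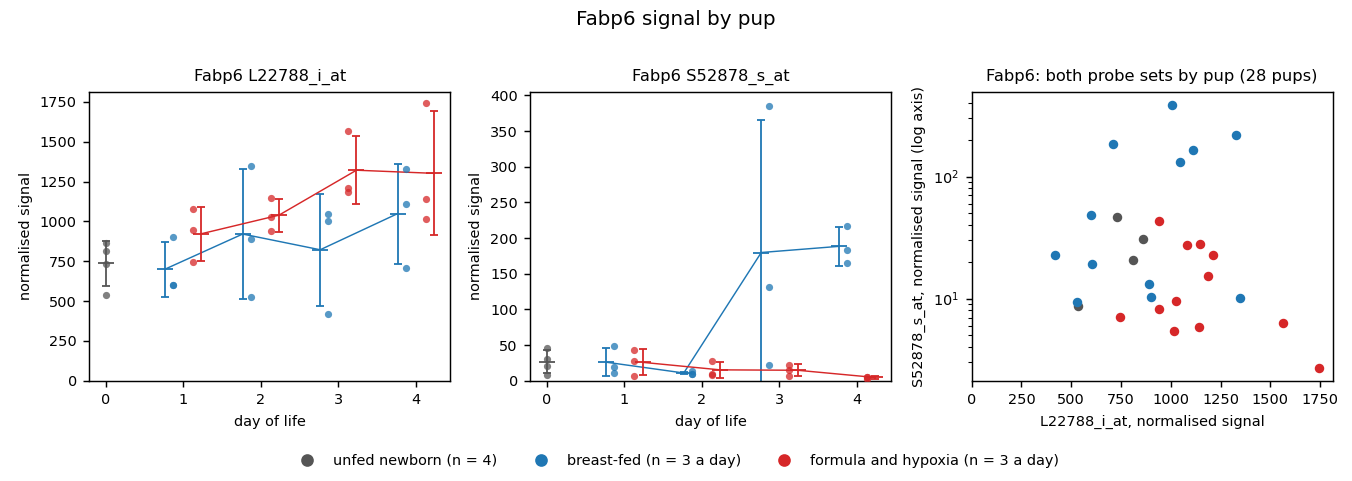
Signal of both Fabp6 probe sets (quantile-normalised intensity) by day of life, with points for pups, ticks for means and bars for the SD (n = 3 a day, 4 unfed; the lower bar is drawn to 0 where it would fall below), and on the right the probe sets against each other in 28 pups (log y axis). S52878_s_at stands at 164 to 217 in breast-fed pups on day 4 and at 2.72 to 5.81 under formula and hypoxia, while L22788_i_at overlaps between the regimens on that day.

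Nr1h4, the bile acid receptor FXR, was read by 1 probe set, U18374_at. Unfed newborns gave 326, 186, 135.5 and 167. Breast-fed pups gave 125, 124 and 191 (day 1), 96.5, 68.8 and 89.3 (day 2), 126, 119.7 and 114 (day 3), and 81.5, 129 and 121 (day 4). Under formula and hypoxia the signals were 246, 273 and 135 (day 1), 168, 185 and 193 (day 2), 56.7, 168 and 205 (day 3), and 135.5, 154 and 96.9 (day 4). The regimens were separate on day 2 only, as were 20.7% of all probe sets on that day. The day 2 difference was 2.06-fold (log2 1.04, 95% interval 0.30 to 1.78) and did not pass (limma adjusted p = 0.221), whereas it passed with array weights (1.02, 0.0405) and with only the arrays of that day (1.04, 0.0403). Over the days it was 0.46 (0.09 to 0.83, adjusted p = 0.104), with 9 of 12 pups higher. It passed without formula and hypoxia day 3 replicate 1, the pup at 56.7 (0.59, adjusted p = 0.0143), and with array weights (0.52, 0.0202).

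Nr0b2 encodes the small heterodimer partner, an FXR target that represses bile acid synthesis genes, and was read by 3 probe sets. With D86580_at the signal lay between 43.8 and 164 in breast-fed pups (median 91.5) and between 32.9 and 365 under formula and hypoxia (median 64.8). The highest value belonged to formula and hypoxia day 3 replicate 3, and that pup was also highest of all 28 with D86745cds_s_at, at 485, and with D86745exon_s_at, at 120.3. The other pups of its group had 81.8 and 71.7 with D86580_at. The regimens did not overlap with D86580_at on days 2 and 4, being lower under formula and hypoxia on both days, when 20.7% of all probe sets were separate. With D86745cds_s_at they were separate on day 2 only, in the same direction, and with D86745exon_s_at they overlapped on every day.

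No Nr0b2 probe set passed in any comparison. Over the days D86580_at differed by -0.40 (95% interval -0.89 to 0.10, limma adjusted p = 0.313), with 9 of 12 pups below the breast-fed mean of their age, and on day 4 by -1.16 (adjusted p = 0.243). D86745cds_s_at differed by 0.09 (adjusted p = 0.874) over the days, from -1.19 on day 2 (0.512) to 1.39 on day 3 (0.224). D86745exon_s_at, below the filter, differed by 0.21 (adjusted p = 0.724 in the unfiltered fit). The effects with D86580_at and D86745exon_s_at differed by -0.60 (exact permutation p = 0.0117, adjusted p = 0.0351), and those of D86580_at and D86745cds_s_at by -0.49 (p = 0.154, adjusted p = 0.308). D86745cds_s_at and D86745exon_s_at differed by -0.12 (exact permutation p = 0.807, adjusted p = 0.956). The adjustment ran over 6 pairs and included the Fabp6 pair, which was known to disagree and had the lowest p. The adjusted p of 0.0351 depends on that pair, so no difference between Nr0b2 probe sets is called from it.

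**Figure D4:**
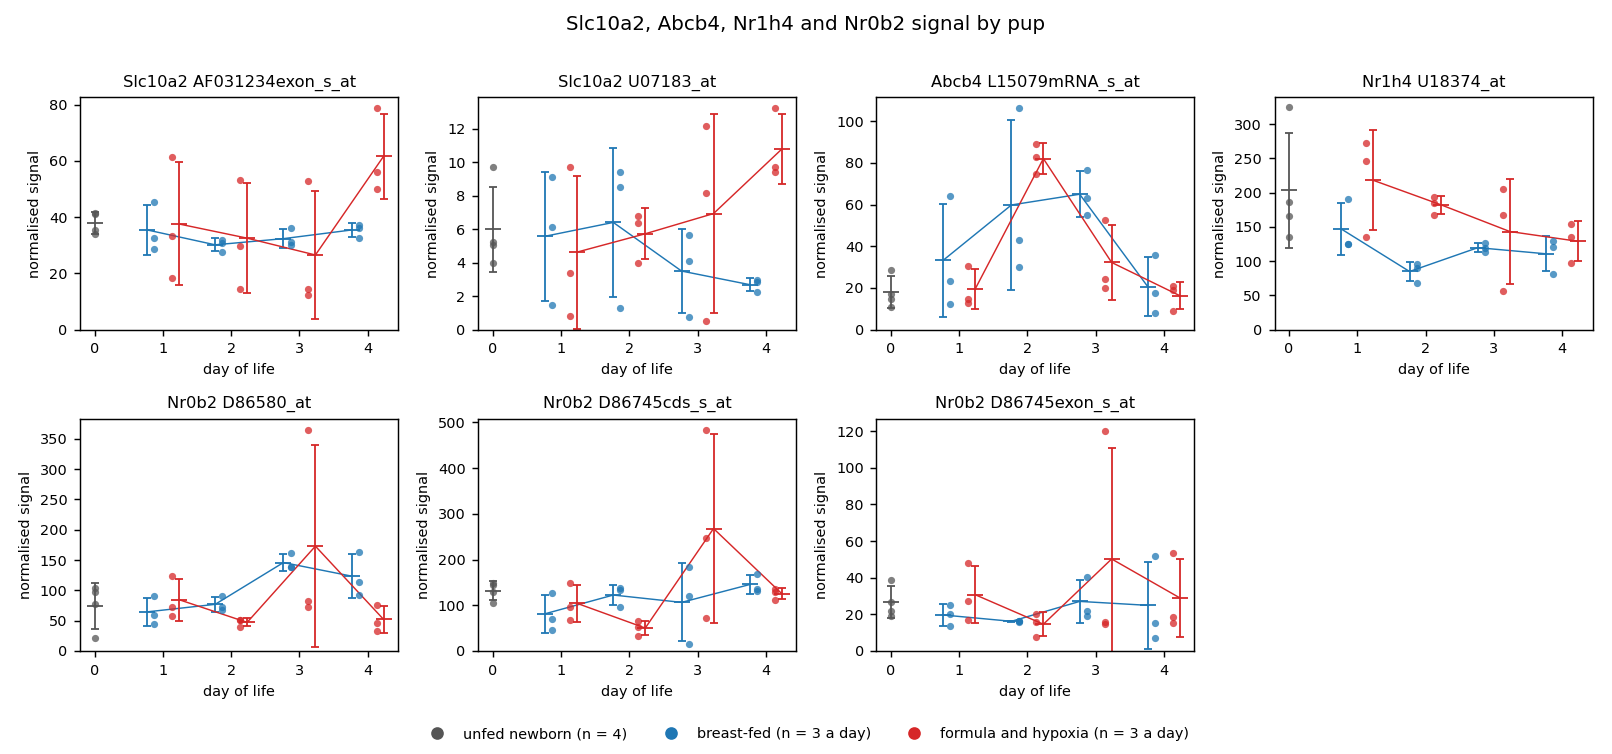
Signal of Slc10a2, Abcb4, Nr1h4 and Nr0b2 probe sets (y axes, quantile-normalised intensity) by day of life (x axis, days), with points for pups, ticks for means and bars for the SD (n = 3 a day, 4 unfed). Slc10a2 stays within 27.5 and 45.4 in breast-fed pups with AF031234exon_s_at, and 1 pup given formula and hypoxia stands at 365, 485 and 120.3 with the Nr0b2 probe sets on day 3.

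Day 1 of each regimen was also set against unfed newborns. The contrasts join first feeding with a day of life, and with hypoxia in the formula pups, so feeding alone cannot be told apart. Unfed replicates 2, 3 and 4 and breast-fed day 1 replicate 2 belong to the second accession run. The day 1 arrays of formula and hypoxia all belong to the first. With limma, 0 of 11 probe sets passed in breast-fed pups, against 0% of all, and 0 of 11 had an unadjusted p under 0.05. Under formula and hypoxia 0 of 11 passed, against 0.153% of all, and 1 had an unadjusted p under 0.05. That was Cyp27a1 M38566mRNA_s_at, 2.13-fold higher than in unfed newborns (log2 1.09, adjusted p = 0.29). The comparisons of the 2 regimens on day 1 and with unfed newborns share arrays, so they are not separate evidence. For Cyp27a1 Y07534cds_s_at breast-fed day 1 pups differed from unfed newborns by -0.91 (adjusted p = 0.93) and those on formula and hypoxia by 0.82 (0.642).

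Among other genes of bile acid synthesis and conjugation, 12 of 18 listed were on the array and 7 were tested, of which 1 rose and 2 fell over the days (median 0.10). Over all probe sets tested, 3.91% rose and 6.58% fell. Akr1c14, a hydroxysteroid dehydrogenase, was 2.22-fold higher with D17310_s_at (log2 1.15, limma adjusted p = 0.0262), while its other probe set gave 0.52 (adjusted p = 0.127). Hsd3b7, which acts on the sterol ring in both routes of bile acid synthesis, was 1.60-fold lower (log2 -0.68, adjusted p = 0.00536) and 2.50-fold lower on day 4 (adjusted p = 0.029). Scp2, which carries the thiolase of side chain shortening, was lower with both of its probe sets, by -0.50 (adjusted p = 0.0213) and -0.66 (0.00541). Cyp7a1, the rate-limiting enzyme of the classic route, lay below the filter with signals of 6.02 to 74.9.

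Of 19 other bile acid and xenobiotic transporters, 10 were on the array and 2 were tested, and 0 passed limma's test, with 0 at an unadjusted p under 0.05. These were Slco1a4, at 0.08, and Abcc6, at -0.05. Of 22 receptors, partners and signals, 12 were on the array and 11 were tested, and 0 passed, with 3 at an unadjusted p under 0.05 and a median of 0.08. Hnf4a, a nuclear receptor of enterocytes and hepatocytes, differed by -0.42 over the days (adjusted p = 0.158) and fell by 1.22 between day 1 and day 4 of formula and hypoxia with 1 of 3 probe sets (adjusted p = 0.0411). Among fatty acid binding proteins, relatives of Fabp6, 2 of 6 tested fell and 0 rose (median -0.31), where 6.58% of all probe sets fell and 3.91% rose. The 2 that fell were Fabp3, the heart type, at -1.31 (adjusted p = 0.00373), and Fabp5, the epidermal type, at -0.69 (0.00445).

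The probe sets of other genes whose log2 values followed a member most closely over the 28 arrays are given as a description. For Cyp27a1 M38566mRNA_s_at they were those of Gpt (r = 0.83), Sult1a1 (0.81) and LOC102549726 (0.80). For Abcc2 they were Enpp3 (0.78), Jun (0.77) and Ugdh (0.76), and for Abcc3 Slfn2 (0.74), Txnrd2 (0.72) and Reg3g (0.72). Fabp6 L22788_i_at was followed by Kcnh3 (0.80), Prss1 (0.78) and Akr1c3 (0.75), and Slc10a2 by Inpp4b (0.56), Pdap1 (0.55) and Gipr (0.55). Nr1h4 was followed by Gas5 (0.77), Eif2b3 (0.76) and Rpl41 (0.76), Nr0b2 D86745cds_s_at by Cyp2c23 (0.73), Golgb1 (0.68) and Rabep2 (0.66), and Abcb4 by Lck (0.71), Tra2b (0.68) and Ccnd1 (0.68). The arrays share regimen, day and scaling.

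Markers of cell types were measured beside these genes, where 10.5% of all probe sets passed over the days (3.91% higher and 6.58% lower). Over the 4 days, 0 of 16 enterocyte markers tested passed limma's test between the regimens, with 4 at an unadjusted p under 0.05, and their summed signal was 20900 to 37704 in breast-fed pups and 18603 to 40541 under formula and hypoxia. Of 10 liver markers tested, among 18 on the array, 0 rose and 1 fell (Afp), with sums of 3716 to 8150.4 and 3022 to 6093. Alb, which defines hepatocytes, lay below the filter at 13.1 to 48.4. The brightest liver markers were Cps1 (1039 to 4366), Afp (105 to 3754) and Serpina1 (460 to 1626). Of 9 macrophage and granulocyte markers 1 rose and 3 fell, with sums of 2729 to 4499 against 1707 to 3354, and red cell markers 3 of 4 higher, with sums of 7705 to 15957 against 12269 to 19478. Pancreas markers had 1 of 6 higher, smooth muscle 1 of 9 lower, lymphocytes 1 of 7 lower and colon 1 of 4 higher. The part of these cells in the changes of Cyp27a1, Abcc2 and Fabp6 was not tested.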

How the data were processed

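Total RNA of 28 ileum samples was hybridised to 1 array each, per the labels. The authors deposited 1 linear signal intensity per probe set and array; the software behind it is not given in the sources used here. From the values, 26 of 28 arrays shared a 2% trimmed mean. Intensities lay between 0.000562 and 22483, and the number of arrays limits the precision.

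Control probe sets (59 of 8799) were removed. The platform annotation gave 1 symbol for 7006 probe sets, several for 308 and none for 1426. Intensities were quantile normalised, 8 was added and log2 taken. Probe sets with a mean above the 40th percentile (a signal of 24.0) were kept, which left 5244. Group means were estimated from all arrays with limma 3.58.1 in R 4.3.3 (19 residual degrees of freedom, empirical Bayes with an intensity trend), with two-sided tests, Benjamini-Hochberg adjustment over all probe sets tested and 95% intervals. The code was tested on simulated data.

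The members and lists were chosen with earlier results of these data known. The rule for named genes took every member probe set, the 3 probe sets most correlated with the brightest probe set of each gene, and the other bile acid and fatty acid binding genes that passed. Lists of marker genes covered enterocytes, liver, pancreas, smooth muscle, macrophages and granulocytes, lymphocytes, red cells and colon. Samples were registered in accession runs of 19 and 9 arrays, treated as a possible batch. Alternatives covered the value added, scaling, filter, arrays, weights, run and replicate number. Same-numbered pups of the 2 regimens deviated together with correlations of -0.158 to 0.128, above 0.1 in 1 of 12 pairs, so the numbers were not taken as pairs. The tests between probe sets of a gene were added after seeing the data.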

Additional observations from a re-analysis of the deposited data

How the results depend on the processing

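Over days 1 to 4, both Cyp27a1 probe sets and Fabp6 S52878_s_at kept their calls under every alternative in which they were tested but the second accession run, which holds a single pup on formula and hypoxia. Fabp6 S52878_s_at was not tested with the 60th percentile filter or with the highest probe set per gene only. The Abcc2 call was lost in 18 of 42 alternatives, 12 of them with a single array left out (adjusted p up to 0.0685). The count of probe sets called over the days was 4, and 3 with the deposited scaling, a common median, the 60th percentile filter, run as a term or within run 1, 2 with the highest probe set per gene only and 0 within run 2. With array weights it was 4, with Nr1h4 called in place of Abcc2. With single arrays left out it was 3 to 4. On day 1 it was 0, and 1 with array weights or without both arrays that lost abundant probe sets. On day 2 it was 2, and 3 with array weights or only the arrays compared, 1 with the highest probe set per gene only and 1 to 2 with arrays left out. On day 3 it was 4, and 3 with 2 added, the deposited scaling, a common median, the 60th percentile filter, array weights, run as a term, run 1, the replicate block or without both arrays, 2 with no filter or the highest probe set per gene, 0 with only the arrays of the groups compared, and 1 to 4 with arrays left out. On day 4 it was 2, and 3 with array weights, 1 with a common median, the 60th percentile filter, the highest probe set per gene, run as a term or only the arrays compared, 0 within run 2, and 1 to 2 with arrays left out. For any difference between days it was 0, and 1 with array weights, run as a term or without both arrays, and 0 to 1 with arrays left out. For formula and hypoxia on day 1 against unfed it was 0, and 1 with array weights. For breast-fed day 4 against day 1 it was 0, and 1 with 32 added, the deposited scaling, array weights or run as a term, and 0 to 1 with arrays left out. For the same contrast under formula and hypoxia it was 1, and 2 with array weights and 0 to 1 with arrays left out. Signs turned for values not called. Slc10a2 AF031234exon_s_at went to -0.08 within run 1 and ranged from -0.08 to 0.14 with arrays left out. Nr1h4 went to -0.15 within run 2, and Nr0b2 D86745cds_s_at to -0.35 within run 2 and -0.14 to 0.27 with arrays left out. With the replicate number as a block, Fabp6 S52878_s_at on day 3 was -2.45 with an adjusted p of 0.0564, and no other call changed. The cause of these shifts was not tested. With 3 pups a group, single days limit what could be called.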
